A study of Mus musculus with 4 samples.

Results

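Chemokines are small secreted proteins that steer the movement of leukocytes along gradients. They act through receptors with 7 membrane-spanning segments that signal through G proteins, and a small group of atypical receptors binds chemokines without that signalling and removes or carries them. In the liver they are made by hepatocytes, sinusoidal endothelium, stellate cells and Kupffer cells, the resident macrophages, and they set which monocytes, neutrophils and lymphocytes enter the tissue after injury. The genes described here are all rows of the count files whose symbol names a chemokine ligand or a chemokine receptor (Ccl, Cxcl, Xcl and Cx3cl, and Ccr, Cxcr, Xcr, Cx3cr and Ackr), 62 of 25239 genes. Of these, 35 had at least 10 counts in at least 2 of the 4 libraries and are reported, 20 of 40 ligands and 15 of 22 receptors, and 34 had enough counts for the test.

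The libraries came from the liver of C57BL/6 mice aged 6 to 8 weeks. The control group (n = 2 libraries) received normal saline, and the extract group (n = 2 libraries) received 30 g/kg per day of Gynura segetum, concentrated to 2 g/mL and given into the stomach, for 3 weeks. Gynura segetum is a plant that contains pyrrolizidine alkaloids, which liver enzymes turn into reactive pyrroles that injure the sinusoidal endothelium, and the series presents the extract group as a model of that injury. The labels do not say whether the libraries of a group came from separate mice, and the p-values therefore reflect no more than the scatter of these samples, possibly of technical origin. Gene counts totalled 49711750 and 32215268 per control library and 40013188 and 45754235 per extract library. Hepatocyte markers, 8 of 8 found, summed to between 133571.5 and 140973.4 counts-per-million (CPM) in control and between 88907.6 and 94539.0 CPM in extract libraries, where CPM is relative to the TMM-scaled library size.

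The control libraries stood apart from each other in these genes. Control replicate 1 lay more than 2-fold above control replicate 2 in 19 of the 35 reported members, against 9.61% of all genes tested, and control replicate 2 lay more than 2-fold above control replicate 1 in 2 members, against 3.91%. The same difference was seen in the summed level of the T and NK cell markers, at 37.9 CPM in control replicate 1 and 8.08 CPM in control replicate 2, which was 30.2 and 6.60 CPM without Gzma, the most abundant of them. The dendritic cell markers summed to 133.7 and 40.6 CPM, of which the MHC class II gene H2-Ab1 held 110.7 and 27.9 CPM, and without H2-Ab1 they came to 22.9 and 12.7 CPM in control against 18.3 and 16.6 CPM in extract libraries. The extract libraries differed less, with 3 members more than 2-fold higher in replicate 1 and 7 in replicate 2 (all genes 3.82% and 2.13%).

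Few members passed the test, and the direction over the members as a whole depended on the control library used. With edgeR's quasi-likelihood test and an adjusted p under 0.05 over 13963 genes, 3 members fell (Cxcl13, Ccl24 and Ccl6) and 1 rose (Ackr3), while 30 did not pass. Over all genes tested, 8.54% were past that threshold, 3.63% lower and 4.91% higher. The median log2 fold change was -0.33 over the tested members, -0.33 over the 20 ligands and -0.38 over the 14 receptors, against -0.005 over all genes. Without control replicate 1 all 3 medians changed sign, to 0.29 for the members, 0.29 for the ligands and 0.35 for the receptors, and the receptor median was also positive under a stricter filter on low counts (0.34). At an unadjusted p under 0.05, edgeR gave 8 members lower and 3 higher, against 11.2% and 12.3% of all genes tested. DESeq2's Wald test gave 6 members lower (Ackr2, Cxcl12 and Cxcr6 in addition) and 1 higher, against 6.25% and 7.06% of its genes, and limma-voom gave the same counts as edgeR, against 3.62% lower and 5.16% higher. Leaving out extract replicate 1 left 2 members lower and 0 higher (background 0.929% and 1.61%), and leaving out extract replicate 2 left 2 lower and 0 higher (1.17% and 2.15%). With the replicate number as a block 4 members were lower and 1 higher, against 4.88% and 6.46% of genes. The fits without each control library are described below and moved both counts by more than 1.5 times, to 13 lower and to 6 higher at most. In whole liver, fewer cells of a type and less RNA per cell cannot be told apart.

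Promoters are shown for the members past the threshold, since the results turn on these genes. The RefSeq table on GRCm38.p6 held a promoter for 3 of the 4, reaching from 250 bases before to 50 bases after the start site. They are Cxcl13 (chr5:95956689-95956988, plus strand), Ackr3 (chr1:90203730-90204029, plus strand) and Ccl6 (chr11:83593038-83593337, minus strand), each written 5′ to 3′ on the gene's strand. Capitals mark matches to the motifs searched on both strands.
Cxcl13: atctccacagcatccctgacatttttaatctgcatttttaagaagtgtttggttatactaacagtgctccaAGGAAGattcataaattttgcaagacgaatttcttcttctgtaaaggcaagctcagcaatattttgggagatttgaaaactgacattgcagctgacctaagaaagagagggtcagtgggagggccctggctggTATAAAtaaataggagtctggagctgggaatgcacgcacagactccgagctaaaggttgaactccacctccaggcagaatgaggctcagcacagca
Ackr3: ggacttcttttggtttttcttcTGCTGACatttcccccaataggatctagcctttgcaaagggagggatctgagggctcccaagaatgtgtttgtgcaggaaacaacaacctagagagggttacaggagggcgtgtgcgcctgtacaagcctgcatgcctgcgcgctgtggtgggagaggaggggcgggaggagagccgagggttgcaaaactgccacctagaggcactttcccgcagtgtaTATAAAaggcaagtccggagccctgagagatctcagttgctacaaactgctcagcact
Ccl6: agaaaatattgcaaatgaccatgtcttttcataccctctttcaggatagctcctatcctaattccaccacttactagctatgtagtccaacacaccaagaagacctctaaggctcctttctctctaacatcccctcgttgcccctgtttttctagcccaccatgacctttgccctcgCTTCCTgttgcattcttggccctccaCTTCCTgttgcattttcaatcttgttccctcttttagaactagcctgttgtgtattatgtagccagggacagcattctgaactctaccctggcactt

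The searched motifs were the TATA box core TATAAA, the ETS core AGGAAG, the AP-1 site TGANTCA, the MAF half-site TGCTGAC, and the usual degenerate forms of the NF-kappaB site and of the interferon response core (ISRE). The Cxcl13 window held TATAAA at positions -46 to -41 and AGGAAG at -179 to -174, counted from the start site. The Ackr3 window held TATAAA at -8 to -3 and TGCTGAC at -228 to -222. The Ccl6 window held the ETS core on the other strand at -73 to -68 and again at -47 to -42, and no match overlapped another in these windows. Among 32851 RefSeq promoters of the same length, 13.6% held TATAAA, 35.4% the ETS core, 7.81% the AP-1 site, 4.67% the MAF half-site, 8.46% the NF-kappaB site and 3.44% the interferon core. Of the 26 reported members with a promoter in the table, 9, 12, 4, 3, 6 and 2 held these motifs in the same order. Here a gene was counted if any of its promoters held the motif. Counted in this way over 27025 genes, the shares were 15.7%, 38.4%, 8.97%, 5.28%, 9.55% and 3.99%. A match is a description of the letters and not a bound site.

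**Figure D1:**
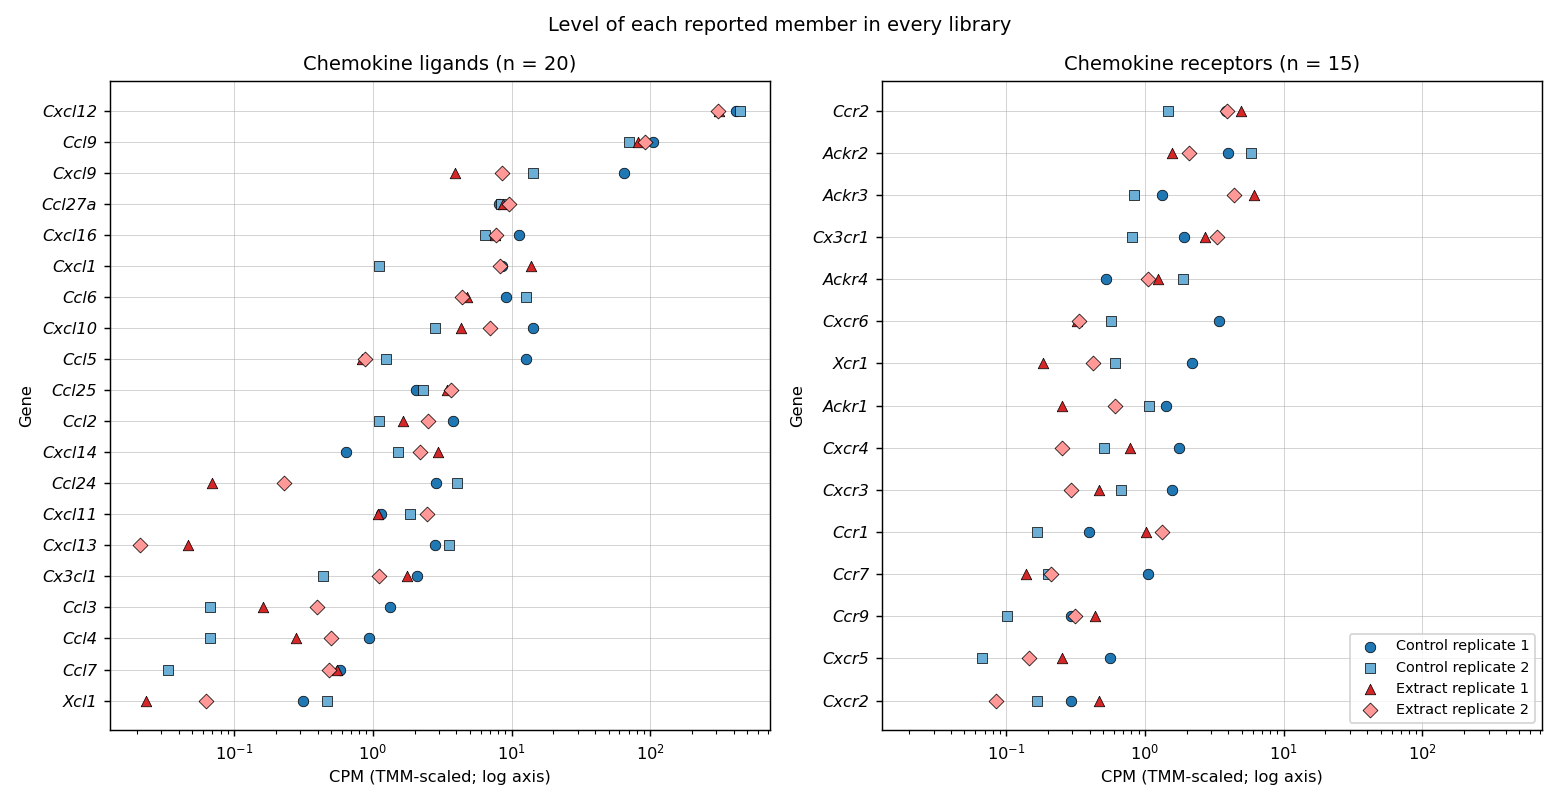
Level of each of the 35 reported members (20 ligands left, 15 receptors right) in every library, in CPM on a log axis, with blue symbols for the 2 control and red symbols for the 2 extract libraries. Cxcl13 and Ccl24 show both extract libraries far to the left of both control libraries, Ackr3 shows the reverse, and for many members, such as Ccl5 and Cxcl1, the control symbols lie far apart.

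Cxcl13, the ligand of Cxcr5 that guides B cells, had the largest fitted change among the members. It lies on chromosome 5 (95956939 to 95961068, mm10) and had 135 and 105 counts in the control libraries and 2 and 1 counts in the extract libraries. It reached the reporting minimum through the control libraries alone. The levels were 2.81 and 3.53 CPM against 0.0464 and 0.0210 CPM, so the transcript was close to absent in both extract libraries and plainly detected in both controls. The ratio of control to extract counts, scaled for library size, was 93.5, with an exact 95% interval for counting error of 31.6 to 457. The fitted log2 fold change was -6.46 (SE 0.64, edgeR adjusted p = 0.00275). Cxcl13 was past the threshold in 15 of 15 alternative analyses, with an edgeR, DESeq2 or limma adjusted p from 2.08e-12 to 0.0106. Its receptor Cxcr5 had 27 and 2 counts in control and 11 and 7 in extract libraries, so its control libraries lay on both sides of the extract libraries. Summed markers of B and plasma cells came to 272.8 and 303.1 CPM in control against 181.6 and 224.0 CPM in extract libraries, and 0 of 8 markers passed the test, with 2 lower at an unadjusted p under 0.05 in edgeR and 1 lower by DESeq2. Of this sum 96.4% was Xbp1, which hepatocytes also make, and without Xbp1 the list came to 17.2 and 7.61 CPM in control against 4.89 and 6.17 CPM in extract libraries. These are markers of cells that Cxcl13 guides, and their relation to the Cxcl13 result was not tested.

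Ccl24, also called eotaxin-2, attracts eosinophils through Ccr3 and is made by macrophages. The gene lies on chromosome 5 (135569935 to 135573123), and its counts were 138 and 121 in control and 3 and 11 in extract libraries. Its level was 3.47 ± 0.846 CPM in control against 0.150 ± 0.114 CPM in extract libraries (SD, n = 2 each), with no overlap. The fitted log2 fold change was -4.48 (SE 0.63, edgeR adjusted p = 0.00946), a 22.3-fold lower level, and it passed in 15 of 15 alternatives. Ccr3 was not reported, with 22 and 3 counts in control and 8 and 0 counts in extract libraries. The list of mast cell, basophil and eosinophil markers was at 17 and 1 counts in the control and 8 and 7 counts in the extract libraries, with Mcpt4 and Fcer1a at 0 in every library, so no marker could be tested.

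Ccl6 and Ccl9 are CC chemokines that mouse myeloid cells make and that act through Ccr1, and they lie in the same cluster on chromosome 11 (Ccl9 at 83572917 to 83578636 and Ccl6 at 83587886 to 83593087). Ccl6 fell, from 9.13 and 12.8 CPM in control to 4.77 and 4.43 CPM in extract libraries (counts 438 and 381 against 206 and 211). Both extract libraries lay below both controls, with a log2 fold change of -1.25 (SE 0.25, edgeR adjusted p = 0.0283, 2.38-fold). Without extract replicate 1 the log2 fold change of Ccl6 was -1.32 and without extract replicate 2 it was -1.22, and neither passed (edgeR adjusted p up to 0.173, from 5.46e-07 over the 15 alternatives). Ccl9 was at 104.4 and 70.5 CPM in control against 82.1 and 90.9 CPM in extract libraries. The extract libraries of Ccl9 lay between the controls, with a log2 fold change of -0.02 (SE 0.20, edgeR adjusted p = 0.975) and a 95% interval of -0.50 to 0.47. The difference between the changes of these genes was not tested.

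Beside the fall of Cxcl13, Ccl24 and Ccl6, 10 of 10 Kupffer cell markers fell, against 3.63% of all genes tested. Among them were the lectin Clec4f (-4.86 on the log2 scale), the complement receptor Vsig4 (-4.55) and the phosphatidylserine receptor Timd4 (-5.33). The Kupffer cell list summed to 701.7 and 631.3 CPM in control against 125.1 and 155.6 CPM in extract libraries, and no marker of the list was at 0. Its median log2 fold change was -3.66 with either control library left out. With either extract library left out the median was -3.71, and fewer of the 10 passed. Over the 12 wider monocyte and macrophage markers 4 fell and 1 rose, against 3.63% and 4.91% of all genes tested. This wider list summed to 310.1 and 211.2 CPM against 148.7 and 96.7 CPM, and fewer of its markers fell with either extract library left out. The part of these cells in the chemokine results was not tested.

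Ccl3, Ccl4 and Ccl5 are inflammatory CC ligands made by T cells, NK cells and macrophages. Ccl5 had 614 and 37 counts in control and 36 and 42 counts in extract libraries, or 12.8 and 1.25 CPM against 0.834 and 0.881 CPM. Control replicate 1 alone held the high level, and control replicate 2 was close to the extract libraries. The log2 fold change was -3.04 (SE 1.17, edgeR adjusted p = 0.229), and it was -0.54 without control replicate 1 and -3.89 without control replicate 2, where it passed. Ccl3 had 64 and 2 counts against 7 and 19, and Ccl4 had 45 and 2 against 12 and 24, so the extract libraries lay between the controls for both genes, and their fitted values of -1.35 and -0.41 turned to 2.02 and 2.49 without control replicate 1. T and NK cell markers were at 37.9 and 8.08 CPM in control against 2.53 and 4.66 CPM in extract libraries, with 0 of 12 past the edgeR threshold, 8 lower at an unadjusted p under 0.05, 5 lower by DESeq2 and 0 by limma-voom. Of all genes tested, 11.2% were lower at an unadjusted p under 0.05 in edgeR, and 6.25% were lower by DESeq2. The median log2 fold change of these markers was -3.01 without control replicate 2 and -1.4 without control replicate 1. The part of T and NK cells in the Ccl5 values was not tested.

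Cxcl9, Cxcl10 and Cxcl11 are the interferon-induced ligands of Cxcr3, the receptor of activated T cells and NK cells. Cxcl9 had 3123 and 424 counts in control and 169 and 408 counts in extract libraries. The levels were 65.1 and 14.3 CPM against 3.92 and 8.56 CPM, so the extract libraries lay below both controls, which themselves differed 4.56-fold. The log2 fold change of -2.67 (SE 0.96) did not pass (edgeR adjusted p = 0.232), and it did not pass in any of 15 alternatives. Cxcl10 had 684 and 83 counts in control and 185 and 331 in extract libraries, with the extract libraries between the controls. Its direction depended on the control library used. It was higher and past the threshold without control replicate 1 (1.01), and lower and past it without control replicate 2 (-1.34), with an edgeR, DESeq2 or limma adjusted p from 3.19e-06 to 0.985 over all alternatives and 0.729 with all 4 libraries. Cxcl11 was at 55 and 55 counts in control and 47 and 118 in extract libraries, and 40.5% of its 75-base stretches also occur in the overlapping gene Gm2673, so its count is uncertain.

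Of 10 genes of interferon signalling (Stat2, the Irf factors, receptor chains and Socs1), 0 passed the edgeR threshold, with 3 lower at an unadjusted p under 0.05, 1 lower by DESeq2 and 0 by limma-voom. Stat2 was at -0.47 on the log2 scale (edgeR adjusted p = 0.0903) and Irf1 at 0.00. The list median was -0.38, and control replicate 1 was the highest of the 4 libraries in 9 of the 10 genes. That median was -0.49 without control replicate 2 and -0.16 without control replicate 1.

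Cxcl1, a neutrophil attractant that binds Cxcr2, had 409 and 33 counts in control and 595 and 397 counts in extract libraries. The levels were 8.52 and 1.11 CPM against 13.8 and 8.33 CPM, so extract replicate 2 lay between the controls. The log2 fold change was 1.17 (SE 0.99, edgeR adjusted p = 0.576), 3.31 without control replicate 1, where it passed, and 0.38 without control replicate 2. The other neutrophil CXC ligands were scarce, with Cxcl5 at 2, 0, 26 and 1 counts and Cxcl2 at 15, 0, 1 and 8 counts in the order control 1, control 2, extract 1 and extract 2, and Cxcl3 and Cxcl15 at 0 throughout. Of 16 neutrophil markers 6 could be tested and 0 passed in edgeR, with 1 higher at an unadjusted p under 0.05, 1 higher and 2 lower by DESeq2 and 0 by limma-voom. The median log2 fold change of the tested markers was 2.82 without control replicate 1 (6 tested) and -1.79 without control replicate 2 (11 tested). The neutrophil list summed to 25.6 and 24.0 CPM in control against 86.9 and 41.8 CPM in extract libraries. It held Lcn2, which hepatocytes can also make, at 11.0 and 19.2 CPM in control against 81.1 and 36.2 CPM in extract libraries. Without Lcn2 the list summed to 14.5 and 4.78 CPM in control against 5.77 and 5.64 CPM in extract libraries.

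Cxcl12, the constitutive ligand of Cxcr4 and Ackr3 that stromal and endothelial cells make, was by far the most abundant member. It had 19778 and 13235 counts in control and 13409 and 14673 in extract libraries, or 412.2 and 445.4 CPM against 310.8 and 307.9 CPM. The extract libraries lay below both controls and close together, at 1.39-fold lower, but the change did not pass (log2 fold change -0.47 with SE 0.14, edgeR adjusted p = 0.0916). It passed with DESeq2 and without control replicate 1, with an edgeR, DESeq2 or limma adjusted p from 0.0137 to 0.575 over all 15 alternatives. Per kilobase of exon, Cxcl12 was at 52.4 CPM per kb in control and 37.8 CPM per kb in extract libraries, above Ccl9 (28.7 and 28.4) and above Cxcl9 (13.2 and 2.07). Cxcl12 took 61.9% and 77.0% of the summed ligand CPM in the control and 69.1% and 67.0% in the extract libraries, and Ccl9 took 15.7% and 12.2% against 18.3% and 19.8%.

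The remaining ligands did not pass the test. Cxcl14, an epithelial chemokine, was at 31 and 45 counts in control and 128 and 105 in extract libraries, higher in both extract libraries (log2 fold change 1.28 with SE 0.52, edgeR adjusted p = 0.202). Its value was 0.77 without control replicate 1 and 2.00 without control replicate 2, where it passed (edgeR adjusted p = 0.00145). Xcl1, the lymphotactin of T and NK cells, was at 15 and 14 counts in control and 1 and 3 in extract libraries, a ratio of control to extract counts of 8.47 with a counting interval of 2.98 to 33.2 (log2 fold change -3.06 with SE 0.98, edgeR adjusted p = 0.116). Xcl1 reached the reporting minimum through the control libraries alone. Both genes kept the 2 groups apart, as did 54.4% of all genes tested. Ccl2 and Ccl7, the monocyte attractants that bind Ccr2, were at 181 and 33 counts against 71 and 120, and at 28 and 1 against 24 and 23, with the extract libraries between the controls. Ccl25, the thymic and intestinal ligand of Ccr9, was at 0.70 on the log2 scale (edgeR adjusted p = 0.252). Cx3cl1, the membrane-bound ligand fractalkine, was at 0.16 (0.933), and Cxcl16, the ligand of Cxcr6, at -0.22 (0.730). Ccl27a was at 8.13 and 8.38 CPM in control against 8.65 and 9.57 CPM in extract libraries (counts 390 and 249 against 373 and 456, log2 fold change 0.14 with SE 0.20, edgeR adjusted p = 0.731). Its count is uncertain because 57.8% of its 75-base stretches occur in other genes and its exons overlap Il11ra1. For Cxcl16, 18.6% of the stretches are shared with Zmynd15.

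Among the 14 receptors tested, Ackr3 rose and 13 did not pass. Ackr3, formerly Cxcr7, is an atypical receptor of endothelial and stromal cells that takes up Cxcl12 and Cxcl11. It lies on chromosome 1 (90203980 to 90215724) and had 64 and 25 counts in control and 265 and 208 in extract libraries. The levels were 1.33 and 0.841 CPM against 6.14 and 4.36 CPM, with both extract libraries above both controls, and the fitted change was 4.76-fold (log2 fold change 2.25 with SE 0.39, edgeR adjusted p = 0.0181). It did not pass without extract replicate 1 (1.98) or without extract replicate 2 (2.47), and over the 15 alternatives, 13 of which it passed, the edgeR, DESeq2 or limma adjusted p ran from 5.09e-08 to 0.168. Its share of the summed receptor CPM was 5.22% and 5.46% in control and 28.9% and 22.8% in extract libraries.

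Beside the rise of Ackr3, 6 of 10 vascular endothelial markers rose, against 4.91% of all genes tested. Among them were the adhesion molecules Pecam1 (1.31 on the log2 scale) and Cdh5 (1.11). The vascular list summed to 99.9 and 74.1 CPM in control against 238.5 and 205.3 CPM in extract libraries. Over the same libraries 7 of 10 sinusoidal endothelial markers fell, such as the scavenger receptor Stab2 (-2.01), against 3.63% of all genes tested. Stab1 (0.22) and Lyve1 (0.84) did not pass and lay above both controls in both extract libraries. The sinusoidal list summed to 389.8 and 401.3 CPM in control against 208.8 and 209.8 CPM in extract libraries. The count of vascular markers that rose was 1 without extract replicate 1 and 4 without extract replicate 2, and 4 and 6 sinusoidal markers fell in these fits. The part of these cells in the Ackr3 result was not tested.

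**Figure D2:**
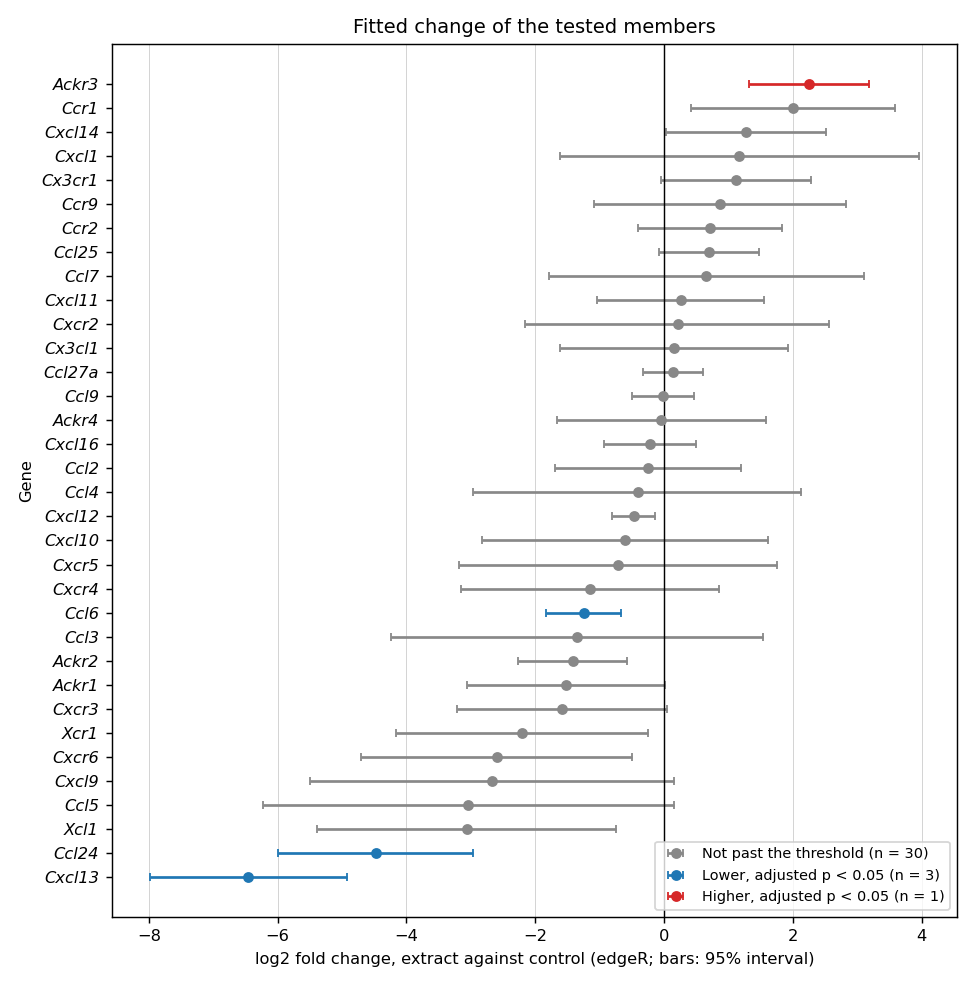
Fitted log2 fold change of extract against control for the 34 tested members, ordered by size, with 95% intervals as bars. Red marks the 1 member past the threshold and higher (Ackr3), blue the 3 that were lower (Cxcl13, Ccl24 and Ccl6) and grey the 30 that did not pass, some of whose intervals are wider than 4 log2 units.

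Receptors of the monocyte lineage were higher in both extract libraries without passing the test. Ccr1 had 19 and 5 counts in control and 44 and 63 in extract libraries, Ccr2 had 184 and 44 against 213 and 188, and Cx3cr1 had 92 and 24 against 117 and 157. For all 3 genes the groups did not overlap on the CPM scale, and 27.6% of all genes tested were likewise higher in both extract libraries. Their log2 fold changes were 2.00 (SE 0.66) for Ccr1, 0.72 (SE 0.47) for Ccr2 and 1.12 (SE 0.49) for Cx3cr1, with edgeR adjusted p of 0.127, 0.423 and 0.230. These genes passed without control replicate 1 (2.78, 1.58 and 1.89) and did not pass without control replicate 2 (1.56, 0.21 and 0.65). Cxcr2, the receptor of neutrophils for Cxcl1, had few counts (14, 5, 20 and 4 in the order control 1, control 2, extract 1 and extract 2), and Cxcr1 was at 0.

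Cxcr3, Cxcr4, Cxcr5, Cxcr6, Xcr1 and Ccr7, receptors of lymphocytes and dendritic cells, were highest in control replicate 1, and 0 of them passed with all 4 libraries. Cxcr6, found on tissue-resident T cells and NKT cells, had 163 and 17 counts in control and 14 and 16 in extract libraries. Its log2 fold change was -2.60 (SE 0.87, edgeR adjusted p = 0.137), with -0.79 without control replicate 1 and -3.35 without control replicate 2, where it passed, as it did with DESeq2. Xcr1, the Xcl1 receptor of cross-presenting dendritic cells, had 105 and 18 counts against 8 and 20, or 2.19 and 0.606 CPM against 0.185 and 0.420 CPM (log2 fold change -2.21 with SE 0.82, edgeR adjusted p = 0.164). For Xcr1 the fit without control replicate 1 gave -0.99, and that without control replicate 2 gave -2.83 and passed (edgeR adjusted p = 0.000237). Cxcr3 had 76 and 20 counts against 20 and 14 (-1.59, SE 0.68, edgeR adjusted p = 0.222), with -0.83 when control replicate 1 was left out and -2.06 when control replicate 2 was, where it passed (0.0211). For these 3 receptors both extract libraries lay below both controls, as they did for 26.7% of all genes tested. For Cxcr4 (85 and 15 against 34 and 12 counts), the B cell receptor Cxcr5 and the lymph node homing receptor Ccr7 (51 and 6 against 6 and 10), the groups overlapped, and Ccr7 had too few counts for the test with all 4 libraries. The T and NK cell markers and, mainly through H2-Ab1, the dendritic cell markers differed between the control libraries in the same direction, and their part in these results was not tested.

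Of the 4 atypical receptors, 1 rose (Ackr3) and 3 did not pass. Ackr2, the scavenger of inflammatory CC chemokines, had 190 and 173 counts in control and 68 and 99 in extract libraries, or 3.96 and 5.82 CPM against 1.58 and 2.08 CPM. Both extract libraries lay below both controls, with a log2 fold change of -1.41 (SE 0.36, edgeR adjusted p = 0.0601). Ackr2 was past the threshold in 5 of 15 alternatives, with DESeq2, with no filter on low counts, with the replicate block and with either control library left out. Ackr1, the Duffy antigen receptor of red cells and venules, had 68 and 32 counts against 11 and 29 (log2 fold change -1.52 with SE 0.65, edgeR adjusted p = 0.217), and its exons overlap Cadm3. Ackr4, the scavenger of the homing chemokines, had 25 and 56 counts against 54 and 50, with the extract libraries between the controls (-0.04, SE 0.68, edgeR adjusted p = 0.983).

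Several receptors share a stretch of chromosome 9, and their fitted changes differed in sign, though none of them passed the test with all 4 libraries. In map order, those reported were Ccr9 (from position 123767211), Cxcr6 (123806477), Xcr1 (123852315), Ccr1 (123962126) and Ccr2 (124101918), on mm10. Their log2 fold changes were 0.87, -2.60, -2.21, 2.00 and 0.72 in the same order, and differences between neighbours were not tested.

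**Figure D3:**
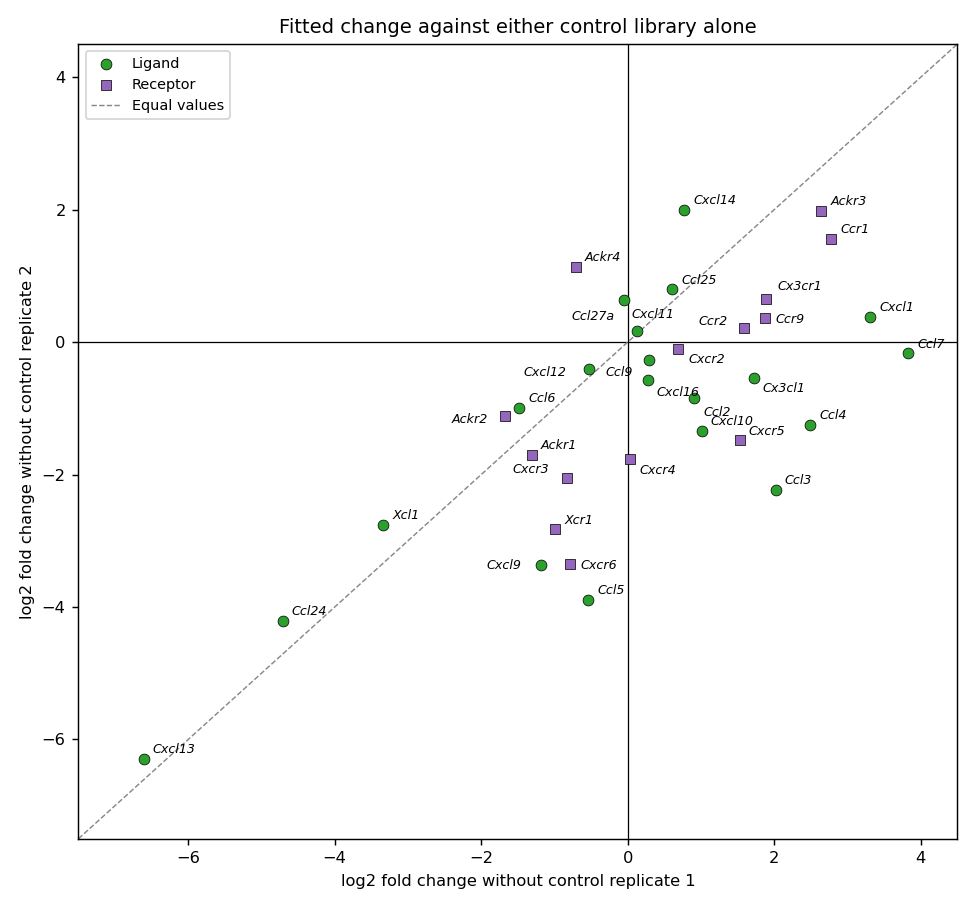
Log2 fold change of extract against control for 34 members, fitted without control replicate 1 (horizontal axis) and without control replicate 2 (vertical axis), with circles for ligands, squares for receptors and a dashed line where both fits are equal. Cxcl13, Ccl24, Ccl6 and Ackr3 lie near the dashed line, while 11 members sit in the lower right field, higher by one fit and lower by the other.

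The choice of control library changed the sign of many members. Of 34 members, 21 had the same sign in the fits without control replicate 1 and without control replicate 2, 12 of them lower and 9 higher, and 13 had opposite signs. Past the threshold and in the same direction in both fits were 4 lower members (Cxcl13, Ccl24, Ccl6 and Ackr2) and 1 higher member (Ackr3). Without control replicate 1, of 35 members tested in that fit, 6 were higher (Ackr3, Ccr1, Ccr2, Cx3cr1, Cxcl1 and Cxcl10) and 5 lower, against 12.8% and 9.96% of all genes tested, and the median over the members was 0.29. Without control replicate 2, 41 members had enough counts, and 2 were higher (Ackr3 and Cxcl14) and 13 lower, against 12.4% and 12.2%, and the median was -0.99. The 13 include Ccl22, below the reporting minimum, and Ccr7, not tested with all 4 libraries, beside Ccl5, Cxcl10, Ccl3, Cxcr3, Cxcr4, Cxcr6 and Xcr1, all of which had their highest level in control replicate 1. In both fits the lone control library was assumed to vary like the extract pair, which was the tighter of the 2 pairs.

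In the fit of all 4 libraries, both extract libraries lay above both controls in 8 tested members and below both in 12, and the groups overlapped in 14. Over all genes tested, 27.6% lay above and 26.7% below, 54.4% in all. The extract libraries lay between the controls, so that neither group was higher throughout, in 10 members. Xcl1 and Cxcl13 reached the reporting minimum of 10 counts through the control libraries alone, so each is reported only through the group where it was high.

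Receptors were set beside their known ligands in 34 pairs, of which 19 had both genes tested. In 12 pairs the fitted changes had the same sign and in 7 opposite signs, and in 0 pairs were both genes past the threshold. Ackr3 rose while its ligand Cxcl12 was at -0.47 on the log2 scale and Cxcr4, the signalling receptor of Cxcl12, at -1.15. Ccr1 at 2.00 stood against Ccl6 at -1.25 and Ccl5 at -3.04. Pairs share genes, and the counts of signs describe these libraries only.

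Other genes of the chemokine system and of receptor signalling were read from lists outside the symbol rule. Of 10 further chemokine-like ligands, receptors and modifiers, such as Pf4, Mif, Dpp4 and Cmklr1, 0 passed the edgeR threshold. At an unadjusted p under 0.05 in edgeR 3 were lower, with 2 lower by DESeq2 and 0 by limma-voom. The median log2 fold change of these 10 genes was -0.66 without control replicate 2 and 0.13 without control replicate 1. Cmklr1, the chemerin receptor of macrophages, was at 284 and 80 counts in control and 68 and 52 in extract libraries (-1.70 on the log2 scale, edgeR adjusted p = 0.0835). Of 23 tested genes that act downstream of the receptors, 4 fell and 0 rose, against 3.63% and 4.91% of all genes tested. The list median was -0.97. At an unadjusted p under 0.05 edgeR gave 10 lower and 2 higher, against 11.2% and 12.3% of all genes tested. DESeq2 gave 9 lower and 0 higher, against 6.25% and 7.06% of its genes. With limma-voom 4 were lower and 0 higher, against 3.62% and 5.16%. The 4 that fell in edgeR were the receptor kinase Grk3 (-1.99), the GTPase Rac2 (-1.67), the G protein regulator Rgs1 (-2.95) and the actin regulator Was (-1.96). Rac2 had 745 and 245 counts in control and 169 and 171 in extract libraries, or 15.5 and 8.24 CPM against 3.92 and 3.59 CPM, below both controls. The list median was -1.26 without control replicate 2 and -0.53 without control replicate 1. No gene of the list passed with either extract library left out. Several of these genes are leukocyte genes, and the Kupffer cell markers fell in the same libraries, whose part was not tested.

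Of 19 tested genes of the NF-kappaB pathway and of the cytokines that induce chemokines, 2 fell and 1 rose. Over all genes tested, 3.63% fell and 4.91% rose. Il1b, which encodes interleukin 1 beta, had 167 and 85 counts in control and 15 and 29 in extract libraries (-2.72 on the log2 scale, edgeR adjusted p = 0.0184). Il1a had 194 and 119 against 45 and 58 counts (-1.83, 0.0246). Icam1, the endothelial adhesion molecule for leukocytes, rose from 25.2 and 15.5 CPM to 47.7 and 46.0 CPM (1.20, edgeR adjusted p = 0.0299). Tnf, Il6, Il17a and Ifng could not be tested, with Il17a at 0 in every library. Il1a, Il1b and Icam1 passed with either control library left out and did not pass with either extract library left out. The median log2 fold change of the list was -0.27 with all 4 libraries, -0.43 without control replicate 2 and 0.17 without control replicate 1.

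**Figure D4:**
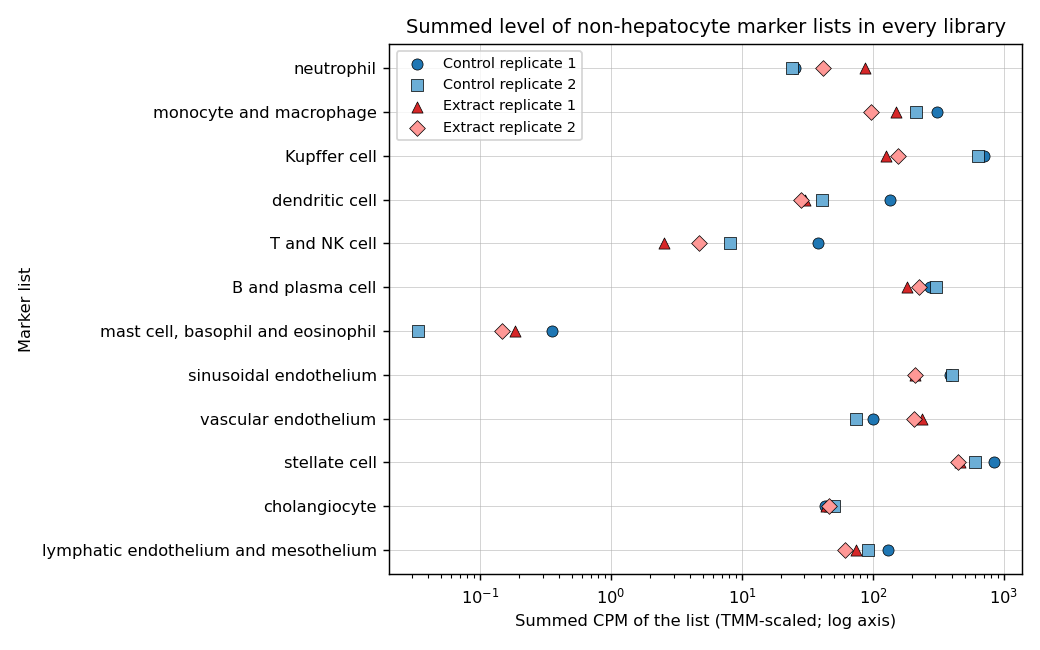
Summed level of 12 marker lists of cells other than hepatocytes in every library, in CPM on a log axis, with blue symbols for control and red symbols for extract libraries. Kupffer cell and sinusoidal endothelial sums are lower and vascular endothelial sums higher in both extract libraries. The neutrophil sum is also higher in both, mainly through Lcn2. The monocyte and macrophage, dendritic, T and NK, B and plasma, stellate, and lymphatic and mesothelial sums are lower in both extract libraries. Without H2-Ab1 the dendritic sums of the 2 groups overlap. The T and NK cell and dendritic cell sums of control replicate 1 lie to the right of the other 3 libraries, the dendritic one mainly through H2-Ab1.

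The 27 members that were not reported had little or no signal, and 10 of them were at 0 in every library. These were Ccl1, Ccl21a, Ccl21b, Ccl21c, Ccl21d, Ccl26, Ccl27b, Cxcl3, Cxcl15 and Cxcr1. With 3 counts as the limit that a 0 allows, a gene at 0 could lie at up to 0.0625 or 0.101 CPM in the control and at up to 0.0695 or 0.0629 CPM in the extract libraries, for counting error only. For the Ccl21 copies and Ccl27b a count of 0 cannot be read in this way, since 100% of the 75-base stretches of Ccl21b, 61.3% of those of Ccl21a and 98.0% of those of Ccl27b occur in other genes. Just outside the reporting minimum were Ccr10 (12, 4, 4 and 6 counts), Ccl28 (2, 5, 2 and 11) and Ccl22 (43, 0, 1 and 8), and just inside it were Xcl1 (15, 14, 1 and 3), Cxcr5 (27, 2, 11 and 7) and Ccr9 (14, 3, 19 and 15), each in the order control 1, control 2, extract 1 and extract 2.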

How the data were processed

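Liver total RNA was sequenced in 2 control and 2 extract libraries. Per the submitters' processing notes, CASAVA 1.8, HISAT2 2.1.0 and HTSeq were used with mm10, and the notes give no roles or order. The deposited files hold the authors' raw counts per gene symbol, with no normalization. The labels and notes name neither the annotation nor the strand setting. Beyond the cases given above, exons overlap other genes for Ackr4 (Acad11), Ccl25 (Elavl1), Ccr9 (Slc6a20a), Cxcl10 (Art3), Cxcr5 (Bcl9l), Xcl1 (Gm20743) and Cx3cr1 (Gm33858). The counts of these members are less certain for that reason. Rows naming no gene took 17.2%, 22.0%, 16.5% and 17.4% of all records (control 1, control 2, extract 1, extract 2) and were left out.

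The test was edgeR 4.0.16 (R 4.3.3; filterByExpr, TMM, robust quasi-likelihood F test, 2-sided), adjusted after Benjamini and Hochberg over 13963 genes, with a threshold of 0.05. The standard error is the log2 fold change over the square root of F. One count is worth 0.0208, 0.0337, 0.0232 and 0.0210 CPM in the same order, which limits the precision for low members. The edgeR step was tested on simulated data. Chi-square per degree of freedom came to 118 between the controls and 29.1 between the extract libraries, so within each group the libraries were not copies of each other. Libraries of different groups were not compared in this way. Alternatives were other scalings, DESeq2 1.42.0, limma-voom (limma 3.58.1), no robust step, 3 other filters, leaving out the 20 most abundant genes or each library, and a replicate block. Marker sums without a list's most abundant gene were added after the data were seen.

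The symbol rule finds 63 rows. Of these 1, and 2 genes of the pathway lists, are not reported here and are in no count, sum or median of members or lists, but they stayed in the fit. The members and lists were chosen with earlier results of these data known. Full values are given for members past the threshold, the 8 next by p and the 4 of highest mean CPM. Positions and promoters are from RefSeq on GRCm38.p6, the assembly of mm10, which matched 62 of 62 members by symbol. Exon lengths and shared stretches are from GENCODE vM21. Protein sequences were not used here.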

Additional observations from a re-analysis of the deposited data

How the results depend on the processing

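In each of the 15 alternatives Cxcl13 and Ccl24 kept their direction and passed, and Ackr3 and Ccl6 passed in 13. The number of members called higher ran from 0 to 6 and lower from 2 to 13 when 1 library was left out, and DESeq2 gave 6 lower. Over all genes the calls ran from 233 to 1826 higher and from 134 to 1782 lower without 1 library, and DESeq2 gave 909 lower. With 1 library left out, the median log2 fold change ran from -0.99 to 0.29 for the members, from -0.71 to 0.29 for the ligands and from -1.17 to 0.35 for the receptors, and the receptor median was 0.34 under the strict filter (at least 10 counts in 2 libraries and a mean of 1 CPM), which tests fewer members. The positive medians with 1 library left out came without control replicate 1. The cause of these shifts was not tested. Scaling by total counts moved the median of all genes to 0.16, and Ackr4 and Ccl9 then both came to 0.14. With limma-voom the values were 0.37 for Ackr4, 0.20 for Ccl4, 0.01 for Ccl9 and -0.25 for Cxcr2. Over the fits that leave out 1 library the log2 fold change ran from -0.71 to 1.14 for Ackr4, -0.85 to 0.91 for Ccl2, -2.23 to 2.02 for Ccl3, -1.25 to 2.49 for Ccl4, -0.17 to 3.83 for Ccl7, -0.27 to 0.29 for Ccl9, -0.54 to 1.72 for Cx3cl1, -1.34 to 1.01 for Cxcl10, -0.48 to 0.72 for Cxcl11, -0.57 to 0.27 for Cxcl16, -1.45 to 0.96 for Cxcr2, -2.18 to 0.03 for Cxcr4 and -1.48 to 1.53 for Cxcr5. None of these 13 genes passed with all 4 libraries.

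Libraries of different groups share replicate numbers, but the labels do not say that a number marks a shared origin, and same-numbered libraries deviated together at r = 0.157 across genes. With the replicate block 1 member was higher and 4 were lower (Ackr2 in addition), 902 genes were higher and 682 lower, and Ackr4 came to 0.18, Ccl4 to 0.08 and Ccl9 to 0.01. Depth limited the low members, for which 1 count in an extract library was worth 0.0210 to 0.0232 CPM.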
